A study of Mus musculus with 74 samples.

Results

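A guidance system of 10 genes was followed through 74 single cells of the mouse pro-epicardial organ, the small outgrowth at the venous pole of the embryonic heart that gives rise to the epicardium. The genes are 5 semaphorin ligand genes (Sema3a, Sema3c, Sema3d, Sema3e and Sema6a) and 5 receptor genes (Nrp1, Nrp2, Plxna2, Plxnd1 and Plxnb2), taken by name from the 30323 genes of the table, which holds 31 semaphorin, neuropilin and plexin genes in all. Each cell carried the Tbx18Cre driver and the mTmG reporter on a C57BL/6 background and was sorted by flow cytometry from dissected tissue at embryonic day 9.5, so the sample is limited to cells labelled through Tbx18Cre. There was 1 group, with no treatment and no control. No embryo or litter is given for any cell, so the 74 cells counted as 1 sample. Comparisons between cells are therefore descriptions without a test, and each ± is the standard deviation (SD) over cells.

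Semaphorins are secreted or membrane-bound guidance cues that mostly repel growing axons and moving cells by collapsing their actin cytoskeleton. Plexins are the signalling receptors. The secreted class 3 semaphorins generally bind a neuropilin that works with a plexin as a shared receptor, whereas Sema3e binds plexin-D1 directly and the transmembrane Sema6a binds class A plexins. Neuropilins are also receptors for vascular endothelial growth factors. In the heart this system takes part in outflow tract septation, vessel patterning and innervation, and Sema3d has been used as a marker of part of the pro-epicardium.

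Total estimated counts per cell ranged from 216177 to 2618538, with a median of 849718. Levels are counts per 1000000 of the cell's total (CPM). Detection in a cell means at least 5 counts, which is 23.1 CPM in the shallowest cell and 1.91 CPM in the deepest. Intervals are exact 95% Clopper-Pearson intervals, which cover the counting of cells only, and reads without molecular identifiers are not independent molecules. Of 15 epicardial markers, 11 were found in 50% or more of all cells. The cells were placed in 3 clusters, built without any of the 31 family genes. The first, of 32 cells, led by genes such as Lhx9 and Upk1b, held each of 15 epicardial markers in 50% or more of its cells and is called epicardial-like. The second, also of 32 cells, led by Lhx2, Tmem119 and Shisa3, held 8 of 11 septum transversum and 8 of 15 epicardial markers in as many cells. It was given no cell type name and is called Lhx2-led. The third, of 10 cells, led by muscle genes such as Myh6 and Csrp3, held 10 of 13 cardiomyocyte markers at that frequency and is called cardiomyocyte-like. It also held 6 of 15 epicardial markers at that frequency. The Lhx2-led and epicardial-like clusters held 6 and 5 of the 13 cardiomyocyte markers. The septum transversum markers were not particular to the second cluster, as 6 of the 11 were at that frequency in each of the others. Their summed level had medians of 1071, 1769 and 2356 CPM in the epicardial-like, Lhx2-led and cardiomyocyte-like cells. Median totals were 762597, 973986 and 796678 counts in this order. The Lhx2-led cluster was loose, with a mean silhouette, a measure of how much closer cells lie to their own cluster than to the next, of 0.0495 and 8 cells of negative silhouette, against 0.447 and 0.346 and none in the epicardial-like and cardiomyocyte-like clusters.

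The neuropilin genes Nrp1 and Nrp2 differed in distribution. Nrp1 was present in every cell. Nrp2 was at its highest level, and most often at 5 or more counts, in the epicardial-like cells. So was the plexin gene Plxna4, which is outside the 10 members. To show the stretch before each start site, up to 250 bases upstream of the RefSeq start of Nrp1, Nrp2 and Sema3d, the ligand gene that was also higher in the epicardial-like cells, follow 5′ to 3′ on the gene's strand, with capitals where a GC box (GGGCGG on either strand) was found. They come from RefSeq on GRCm38.p6, at chr8:128358823-128359072, chr1:62703067-62703284 and chr5:12382916-12383165, all on the plus strand. The Nrp2 stretch stops where other annotated Nrp2 transcripts begin, and the Nrp1 stretch lies within an intron of another annotated Nrp1 transcript. The RefSeq start of Sema3d lies upstream of all Sema3d transcripts in GENCODE.
Nrp1: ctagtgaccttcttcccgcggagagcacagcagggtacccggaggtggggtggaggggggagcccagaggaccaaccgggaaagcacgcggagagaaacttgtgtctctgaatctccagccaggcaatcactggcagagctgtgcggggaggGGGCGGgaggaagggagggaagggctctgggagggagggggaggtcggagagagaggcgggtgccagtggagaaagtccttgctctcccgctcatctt
Nrp2: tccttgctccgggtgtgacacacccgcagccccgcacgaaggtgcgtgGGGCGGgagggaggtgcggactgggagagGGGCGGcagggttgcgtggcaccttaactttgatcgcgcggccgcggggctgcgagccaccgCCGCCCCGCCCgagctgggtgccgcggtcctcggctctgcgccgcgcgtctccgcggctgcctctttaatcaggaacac
Sema3d: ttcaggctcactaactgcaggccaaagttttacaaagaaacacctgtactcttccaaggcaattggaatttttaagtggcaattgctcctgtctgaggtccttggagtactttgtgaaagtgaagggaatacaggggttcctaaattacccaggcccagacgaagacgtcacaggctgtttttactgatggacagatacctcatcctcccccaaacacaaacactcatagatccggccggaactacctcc
The GC box occurred 1 time before Nrp1, 4 times in the Nrp2 stretch shown, where some matches overlap one another, and 0 times before Sema3d. The whole 250 bases before Nrp2 held 5. At least 1 GC box was present in 32.7% of all 32851 windows of 250 bases. Guanine and cytosine made up 64.4%, 72.4% and 46.8% of the whole windows, against a median of 52.4% over all windows. Another 6 motifs were searched on both strands: the GATA site AGATAA (in 9.99% of all windows), the T-box site AGGTGTGA (1.12%), the TEAD site GGAATG (12.6%), the E-box CAGCTG (13.0%), the LIM homeobox site TAATTA (4.84%) and TATAAA (12.4%). None of the 6 was in the Nrp1, Nrp2 or Sema3d window, and over the 10 windows found for 9 of the 10 members only TEAD had a match, in 1. A match describes letters and not a binding site.

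Nrp1, a co-receptor for class 3 semaphorins and vascular endothelial growth factor (ENSMUSG00000025810, chromosome 8, 128358604 to 128503363 on GRCm38), was present in every one of the 74 cells (interval 95.1% to 100%). Nrp1 in its lowest cell had 44.5 CPM, its median was 255 and its highest 697 (mean 272 ± 153). In the epicardial-like cells it ran from 44.5 to 561 CPM with a median of 215, in the Lhx2-led cells from 55.7 to 697 with a median of 322, and in the cardiomyocyte-like cells from 68.1 to 568 with a median of 204. The clusters overlapped over most of this range, and the Lhx2-led mean of 336 ± 150 CPM was 1.51 times the mean of the other cells, short of the 2-fold rule used here (a mean at least 2 or at most 0.5 times that of the other cells).

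Nrp2, the second neuropilin (ENSMUSG00000025969, chromosome 1, 62703285 to 62818695), was detected in 40 of 74 cells (54.1%, interval 42.1% to 65.7%). It was found in 26 of 32 epicardial-like cells (interval 63.6% to 92.8%), 12 of 32 Lhx2-led cells (interval 21.1% to 56.3%) and 2 of 10 cardiomyocyte-like cells (interval 2.52% to 55.6%). Its median was 48.3 CPM in the epicardial-like cluster (lowest 0, highest 315), 1.61 in the Lhx2-led cluster (lowest 0, highest 106) and 0.352 in the cardiomyocyte-like cluster (lowest 0, highest 17.3). All cells above 106 CPM were thus epicardial-like, while the low ends of the 3 clusters met at 0. The epicardial-like mean of 72.6 ± 78.0 CPM was 5.73 times that of the other cells, and the Lhx2-led and cardiomyocyte-like means of 15.6 ± 26.7 and 3.24 ± 5.62 CPM were 0.279 and 0.0735 times those of their own comparison cells. Without the single cell P1-65, at 17.3 CPM, the last value was 0.0380. After all cells were thinned to 354002 counts, Nrp2 was detected in 19 of 27 epicardial-like, 11 of 30 Lhx2-led and 1 of 9 cardiomyocyte-like cells. At 1 or more counts, without thinning, Nrp2 was found in 55 of the 74 cells, so low levels reached well beyond the 32 epicardial-like cells.

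**Figure D1:**
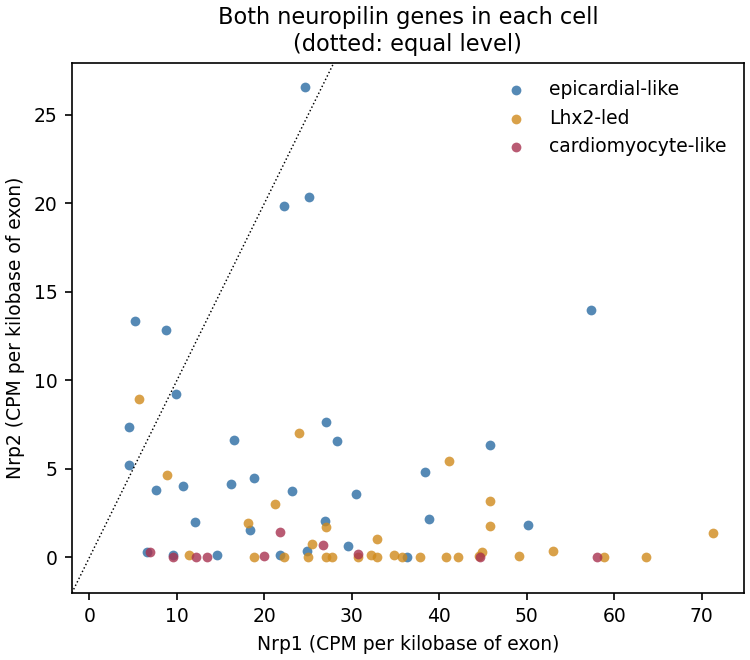
Level of Nrp2 (vertical axis) against Nrp1 (horizontal axis) in CPM per kilobase of exon, 1 point per cell, coloured by cluster, with a dotted line of equal level. Cells above the line, where Nrp2 exceeds Nrp1, are 5 of 32 epicardial-like, 1 of 32 Lhx2-led and 0 of 10 cardiomyocyte-like cells.

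Set side by side per kilobase of exon, Nrp2 made up a median of 16.5% of the neuropilin transcript level in the epicardial-like cells, with a range from 0% to 71.8%. In the Lhx2-led cells the median share was 0.404% with a highest value of 61.1%, and in the cardiomyocyte-like cells 0.149% with a highest value of 6.30%. In the plot of both neuropilins most cells lie along the Nrp1 axis, and Nrp2 exceeded Nrp1 in 6 cells of the 74, which were chosen after their values were seen. These shares depend on the gene length used. Over all exons Nrp1 and Nrp2 averaged 27.8 and 3.26 CPM per kilobase, and by the longest transcript 74.7 and 5.74. By the longest transcript all Nrp2 shares above 0 would therefore be lower.

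Plxna2, a class A plexin that serves class 3 semaphorins through neuropilins and binds Sema6a directly (ENSMUSG00000026640, chromosome 1, 194618218 to 194816869), reached 5 counts in 64 of 74 cells (86.5%; interval 76.5% to 93.3%). The epicardial-like cluster had it in 30 of 32 cells, the Lhx2-led in 26 of 32 and the cardiomyocyte-like in 8 of 10, with medians of 67.7, 46.2 and 42.9 CPM. Its cell values ran from 0 to 320 CPM in the first, 0 to 247 in the second and 0.705 to 224 in the third, so the clusters overlapped throughout.

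Plxnb2, a class B plexin whose usual partners are class 4 semaphorins (ENSMUSG00000036606, chromosome 15, 89155549 to 89180788), reached 5 counts in 72 of 74 cells (97.3%; interval 90.6% to 99.7%). The epicardial-like and Lhx2-led cells held similar amounts, from 23.3 to 194 CPM with a median of 92.9 and from 14.5 to 203 with a median of 90.8. The cardiomyocyte-like cells ran from 1.04 to 55.7 CPM with a median of 29.8, so that their highest cell was below both of those medians. Their mean of 29.3 ± 17.3 CPM was 0.311 times the mean of 94.2 in the other cells.

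Plxnd1, the direct receptor of Sema3e best known from endothelium (ENSMUSG00000030123, chromosome 6, 115954811 to 115995005), was detected in 4 of 74 cells (5.41%, interval 1.49% to 13.3%), and its highest cell had 18.8 CPM. These were 3 Lhx2-led cells and 1 cardiomyocyte-like cell. Of 14 endothelial markers, Cdh5, Tie1, Emcn, Sox18 and Cldn5 were detected in 0 of 74 cells, for which the exact interval reaches 4.86%, whereas Egfl7, Pecam1 and Tek were in 67, 62 and 52 cells. The summed endothelial marker level ran from 43.8 to 371 CPM in the epicardial-like, 41.6 to 309 in the Lhx2-led and 11.9 to 223 in the cardiomyocyte-like cells.

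**Figure D2:**
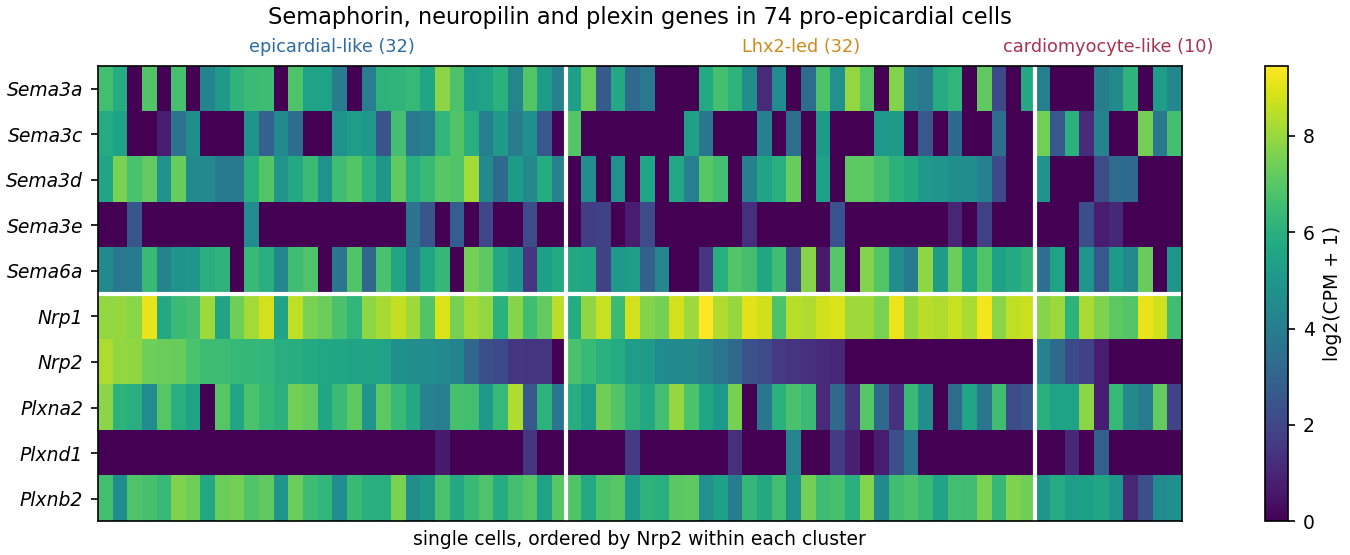
Level of the 10 genes (rows, ligands above and receptors below the white line) in each of the 74 cells (columns, grouped by cluster and ordered by Nrp2 within it), as log2(CPM + 1). Nrp1 is present in every column and Sema3e and Plxnd1 in few, and Nrp2 is highest in the left block of 32 epicardial-like cells.

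Among the ligands, Sema3d, a secreted class 3 semaphorin (ENSMUSG00000040254, chromosome 5, 12383385 to 12588948), was detected in 31 of 32 epicardial-like cells (interval 83.8% to 99.9%), 22 of 32 Lhx2-led cells (interval 50.0% to 83.9%) and 4 of 10 cardiomyocyte-like cells (interval 12.2% to 73.8%). The epicardial-like cells ran from 8.41 to 282 CPM with a median of 58.6, the Lhx2-led cells from 0 to 153 with a median of 25.9, and the cardiomyocyte-like cells from 0 to 28.5 with a median of 0. Every epicardial-like cell thus had some Sema3d, and no cardiomyocyte-like cell reached 30 CPM. The epicardial-like mean of 74.7 ± 62.0 CPM was 2.30 times that of the other cells, and with 10 CPM added to both means the difference was 0.997 on the log2 scale, just short of the rule. The cardiomyocyte-like mean of 4.95 ± 9.01 CPM was 0.0855 times that of the other cells and 0.0404 times without the cell P1-65.

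Sema3a, the classic repellent of class 3, which acts through Nrp1 and class A plexins (ENSMUSG00000028883, chromosome 5, 13125414 to 13602565), reached 5 counts in 55 of 74 cells (74.3%; interval 62.8% to 83.8%). The clusters in the same order had it in 27 of 32, 22 of 32 and 6 of 10 cells, at medians of 44.6, 24.2 and 15.4 CPM. The highest cells of the epicardial-like and Lhx2-led clusters reached 220 and 239 CPM and the highest cardiomyocyte-like cell 69.8, and each cluster had cells at 0. The cardiomyocyte-like mean of 17.9 ± 22.1 CPM was 0.334 times that of the other cells.

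Sema3c, an attractant in outflow tract development (ENSMUSG00000028780, chromosome 5, 17574281 to 17730268), reached 5 counts in 38 of 74 cells (51.4%; interval 39.4% to 63.1%) and had a different distribution. It was found in 22 of 32 epicardial-like, 10 of 32 Lhx2-led and 6 of 10 cardiomyocyte-like cells, at medians of 15.1, 0 and 15.0 CPM and highest cells of 116, 120 and 179 CPM. The cardiomyocyte-like mean of 54.7 ± 70.8 CPM was 3.20 times that of the other cells, but that cluster's median was no higher than the epicardial-like one, so the mean rested on its upper cells. Without P1-14, the highest cell, it was 2.39 times. The Lhx2-led mean of 10.1 ± 23.3 CPM was 0.321 times that of the other cells, and 0.208 times without P1-67, its highest cell. The summed level of the 13 cardiomyocyte markers ran from 8216 to 69611 CPM in the cardiomyocyte-like cells, 1002 to 8993 in the epicardial-like and 440 to 13219 in the Lhx2-led cells, and its part in the Sema3c, Sema3d, Sema3a and Plxnb2 differences was not tested.

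Sema6a, a transmembrane semaphorin (ENSMUSG00000019647, chromosome 18, 47235598 to 47368870), was the most often detected of the 5 ligands, in 60 cells (81.1%, interval 70.3% to 89.3%). The 3 clusters had it in 27 of 32, 25 of 32 and 8 of 10 cells, at medians of 42.4, 45.0 and 25.6 CPM and highest cells of 178, 227 and 152 CPM, and no cluster passed the 2-fold rule. In the cardiomyocyte-like cells the mean was 0.570 times that of the other cells and 0.339 times without P1-14, so this call depended on that cell. Sema3e, the ligand of plexin-D1 (ENSMUSG00000063531, chromosome 5, 14025276 to 14256689), reached 5 counts in 4 of 74 cells (5.41%; interval 1.49% to 13.3%), of which 3 were epicardial-like and 1 was Lhx2-led, and its highest cell had 22.5 CPM. Sema3d, Sema3a, Sema3e and Sema3c lie in this order within 5.35 Mb of chromosome 5, and their detection over the same cells ranged from 4 to 57 of 74.

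**Figure D3:**
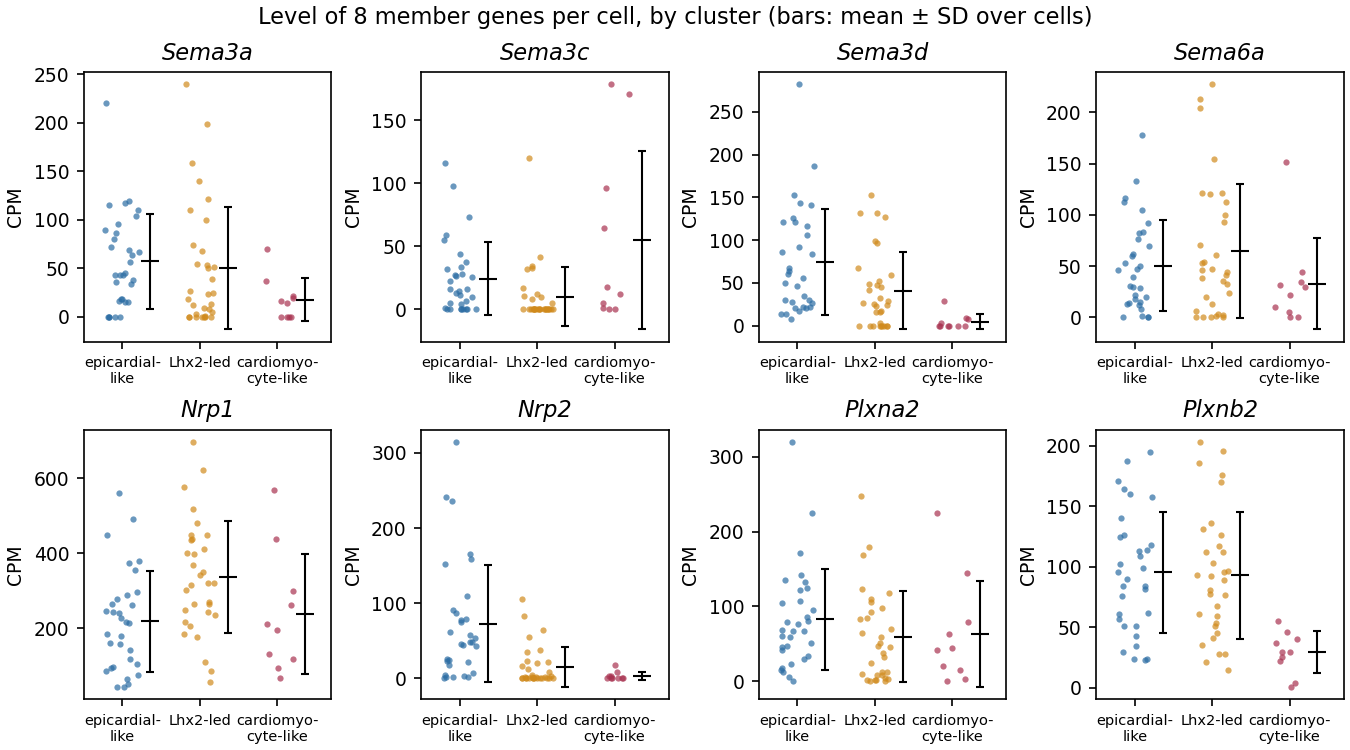
CPM of 8 genes (vertical axes, a linear scale for each panel) in single cells (points) of the epicardial-like (32), Lhx2-led (32) and cardiomyocyte-like (10) clusters, with black bars for the mean ± SD over cells. Sema3d and Nrp2 are highest in the epicardial-like cells, Plxnb2 is lowest in the cardiomyocyte-like cells, and Sema3c splits the cardiomyocyte-like cells into high and low ones.

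At the 2-fold rule, applied to the 8 members detected in at least 10% of cells, Sema3d and Nrp2 were higher in the epicardial-like cluster, where 5.12% of all 11511 genes tested were higher and 10.5% lower. In the Lhx2-led cluster 0 members were higher and Sema3c and Nrp2 were lower, against 6.78% of genes higher and 5.89% lower. In the cardiomyocyte-like cluster Sema3c was higher and Sema3a, Sema3d, Nrp2 and Plxnb2 were lower, against 8.29% of genes higher and 17.2% lower. The median ratio of the 8 members to the other cells was 1.29, 0.904 and 0.452 in the 3 clusters, beside 0.964, 1.04 and 0.892 over all genes tested. When clusters were built from 500 variable genes they held 32, 17 and 25 cells, and the Sema3c, Sema3a and Plxnb2 calls were lost (log2 ratios in the cardiomyocyte-like cluster of 0.24, -0.54 and -0.60, and of -0.72 for Sema3c in the Lhx2-led cluster).

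Within a cell, levels of different genes were compared per kilobase of exon. Nrp1 had the highest mean, 27.8 ± 15.7 CPM per kilobase, and exceeded every other member in 56 of 74 cells. Plxnb2 followed at 11.1 ± 6.79, and below it came Sema6a at 6.17 ± 6.25, Sema3d at 5.90 ± 6.47, Plxna2 at 4.08 ± 3.80, Sema3a at 3.53 ± 3.90, Nrp2 at 3.26 ± 5.20 and Sema3c at 3.11 ± 5.28. Sema3e and Plxnd1 were at 0.116 ± 0.338 and 0.0949 ± 0.367 CPM per kilobase. Nrp1 exceeded Plxnb2 in 63 cells and Plxnb2 exceeded Sema6a in 55, but from Sema6a down to Sema3c each gene exceeded its next neighbour in only 34 to 42 of 74 cells, and these neighbours did not differ beyond their spread. Dividing by the longest transcript in place of all exons put Nrp1 at 74.7 and Plxnb2 at 13.1 and placed Sema3a, at 8.25, next, before Sema3d at 8.04 and Sema6a at 7.90. By all exons, the ligand with the highest level per kilobase was Sema3d in 17 of 32 epicardial-like cells, Sema6a in 18 of 32 Lhx2-led cells and Sema3c in 5 of 10 cardiomyocyte-like cells. These counts depend on the gene length used. They were not repeated with the longest transcript, which raises Sema3a the most of the 5 ligands.

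**Figure D4:**
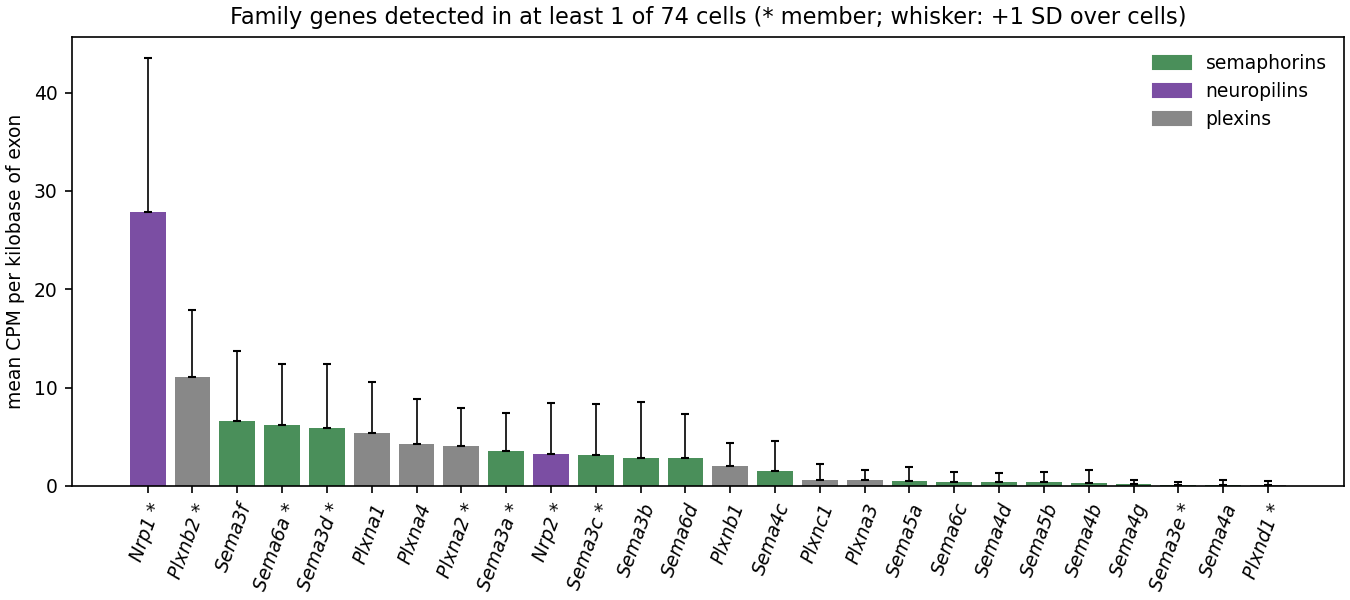
Mean CPM per kilobase of exon over 74 cells (bars, linear axis from 0) for the 26 family genes detected in at least 1 cell, coloured by semaphorin, neuropilin or plexin, with whiskers of +1 SD over cells and asterisks on the 10 genes. Nrp1 and Plxnb2 stand first, and Sema3e and Plxnd1 are among the last 3.

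Ligand and receptor transcripts were mostly found in the same cells. Each ligand was set against its textbook receptor among the 10 genes: Nrp1 with Plxna2 for Sema3a, a neuropilin with Plxna2 or Plxnd1 for Sema3c, Nrp1 with either plexin for Sema3d, Plxnd1 alone for Sema3e and Plxna2 alone for Sema6a. At least 1 ligand with its full receptor was detected in 65 of 74 cells (87.8%, interval 78.2% to 94.3%), namely 30 of 32 epicardial-like, 26 of 32 Lhx2-led and 9 of 10 cardiomyocyte-like cells. With all cells brought to an equal depth of 354002 counts by random thinning, and 8 shallower cells left out, it was 50 of 66 cells (75.8%). Nrp1 was in every cell, and only 1 cell had none of Sema3a, Sema3c, Sema3d and Sema6a. Both counts were thus largely set by Plxna2, which was detected in 64 of 74 cells and, after thinning, in 50 of 66. They are no measure of sharing.

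Sema6a and Plxna2 were detected together in 53 cells, Sema6a alone in 7, Plxna2 alone in 11 and neither in 3. Sema3d and its receptor were together in 51 cells, Sema3d alone in 6, the receptor alone in 15 and neither in 2. Sema3a and its receptor shared 45 cells, with 10 of Sema3a alone, 19 of the receptor alone and 0 of neither. These 3 ligands therefore had receptor transcripts in 88.3%, 89.5% and 81.8% of the cells that made them. Sema3c was together with its receptor in 35 cells and alone in 3, and the receptor without Sema3c was found in 31. Under independent detection the sets of Sema6a, Sema3d, Sema3a and Sema3c would have shared 51.9, 50.8, 47.6 and 33.9 cells. The sharing was thus close to what the frequency of each gene alone would give.

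Sema3e and Plxnd1 were never detected in the same cell: 4 cells had the ligand, 4 others the receptor and 66 neither. Under independent detection 0.216 cells would have had both, so the 0 says little at this depth. At 1 or more counts, 18 cells had Sema3e, 12 had Plxnd1 and 4 had both, against 2.92 under independence. Nrp2 was in all 4 cells with Sema3e and in 0 of the 4 with Plxnd1, against 2.16 under independence in each case. At 1 or more counts it was in 15 of 18 Sema3e cells (13.4 under independence) and 8 of 12 Plxnd1 cells (8.92), and the contrast was gone.

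**Figure D5:**
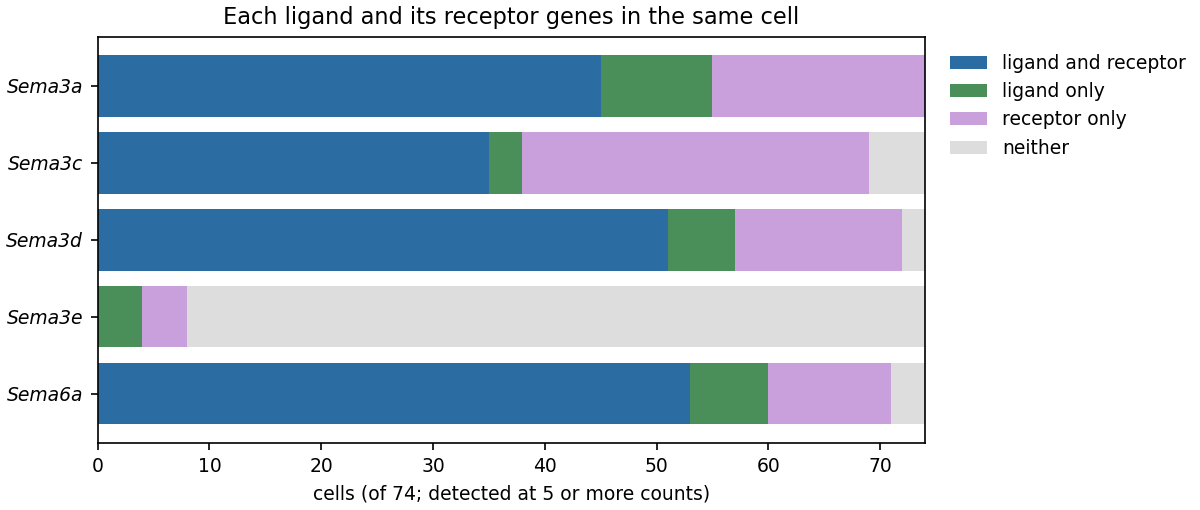
Number of cells (horizontal axis, of 74) with both the ligand and its receptor genes, the ligand only, the receptor only or neither, for each of the 5 ligands (rows). Sema6a, Sema3d, Sema3a and Sema3c share 53, 51, 45 and 35 cells with their receptors and Sema3e shares 0.

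How far such sharing can depart from independent detection is limited by how many cells hold each gene. Nrp1 was in every cell, so its 5 pairs with ligands have a ratio of observed to independent cells of 1 by construction, and Plxnb2 pairs are nearly as fixed. The median ratio over the 25 ligand and receptor pairs, 1.00, is therefore no measure of sharing. Of the 8 pairs of genes detected in 10% to 90% of cells, the cell numbers allowed only 3, those of Nrp2 with Sema3a, Sema3c and Sema3d, a ratio of at most 0.8 or at least its inverse, and 0 of the 3 had one. By the same rule 3.16%, 13.2%, 4.36% and 1.26% of 7681 genes passed with Sema3a, Sema3c, Sema3d and Sema6a, or 3.75%, 14.9%, 5.17% and 2.50% of those that could. Nrp2 was together with Sema3a in 30 cells against 29.7 under independence, with Sema3c in 22 against 20.5 and with Sema3d in 33 against 30.8. Sema3a and Plxna2 shared 45 cells, the fewest their numbers allow, against 47.6 under independence: all 10 cells without Plxna2 had Sema3a, a pair singled out after its values were seen.

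Among the 4 more frequent ligand genes, the commonest set was Sema3a, Sema3c, Sema3d and Sema6a together, in 21 cells, followed by the same set without Sema3c in 18. Of the 4 more frequent receptor genes, 39 cells had Nrp1, Nrp2, Plxna2 and Plxnb2 together, 23 lacked only Nrp2, and 9 had Nrp1 and Plxnb2 alone. An epicardial-like cell had on average 3.44 ± 0.914 of the 5 ligands and 3.75 ± 0.508 of the 5 receptors, an Lhx2-led cell 2.50 ± 0.984 and 3.28 ± 0.729, and a cardiomyocyte-like cell 2.40 ± 1.17 and 2.90 ± 0.738.

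Between the levels of the 10 genes over the 74 cells, Spearman's rho ran from -0.29 (Nrp1 with Nrp2) to 0.37 (Nrp2 with Plxna2), with a median of 0.04 over 45 pairs. These are descriptions over cells that share depth and cluster, and such weak values in sparse counts are no finding. The genes outside the family whose levels most resembled Nrp2 were Tmem108 (rho 0.66), Upk3b, a uroplakin of mesothelium (0.65), and Tmem151a (0.64). At least 0.4 was reached with Nrp2 by 1.59% of 11490 genes. Upk3b averaged 230 CPM in the epicardial-like, 26.7 in the Lhx2-led and 12.5 in the cardiomyocyte-like cells. For Sema3d the closest were Aplp1 (0.59), Itm2a (0.57) and A430005L14Rik (0.52), with 0.722% of genes at 0.4 or more.

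For Nrp1 the closest were Mrgpre (0.50), Cyp1b1 (0.49) and the matrix gene Tnc (0.47), with 0.0783% of genes at 0.4 or more. Mrgpre was detected in only 12 of the 74 cells. Nrp1, Mrgpre, Cyp1b1 and Tnc also had rho of 0.23, 0.30, 0.25 and 0.22 with the total counts of the cell. Tnc averaged 253 CPM in the Lhx2-led cells against 50.4 in the epicardial-like and 13.6 in the cardiomyocyte-like cells. The other members had weaker matches. The closest to Sema3c were Hexim2, Dctn6 and Pim3 (0.48 to 0.45, with 0.122% of genes at 0.4 or more), and to Sema3a Ppp2r2a, Ghr and Cnot6 (0.45 to 0.44, with 0.0435%). The closest to Sema6a were Snrpd1, Rps27 and Ube2l3 (0.45 to 0.42, with 0.0348%). For Plxna2 they were Slc1a3, Ppip5k2 and Cd151 (0.46 to 0.44, with 0.0522%), and for Plxnb2 Gnb1, Ptbp1 and Ptma (0.44 in each case, with 0.157%).

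The rest of the family added ligands and receptors to these cells. Every cell had at least 2 of the 20 semaphorin genes, with a median of 6 and a maximum of 10, and a median of 4 of the 9 plexin genes. Any of the 4 class A plexin genes was detected in 72 of 74 cells, so most cells without Plxna2 had another. Sema3f, a class 3 ligand that prefers Nrp2, averaged 6.63 CPM per kilobase, the highest of the 15 other semaphorins, and was detected in 45 cells. Sema7a and Plxnb3 were at 0 counts in every cell, and Sema6b, Sema4f and Sema3g were also detected in 0 of 74 cells.

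Plxna4, a class A plexin and receptor for Sema3a and Sema6a, was detected in 31 of 32 epicardial-like cells at 112 CPM on average, in 15 of 32 Lhx2-led cells at 26.5 and in 3 of 10 cardiomyocyte-like cells at 6.57. The epicardial-like mean was 5.13 times that of the other cells, near the 5.73 of Nrp2. Sema3b, another class 3 ligand, was found in 18, 6 and 0 cells of the 3 clusters and averaged 5.35 times the level of the other cells in the epicardial-like cluster. Sema5a had the reverse distribution, with 12 Lhx2-led cells against 3 epicardial-like and 1 cardiomyocyte-like. Sema6d was in 24, 17 and 0 cells. Of the 21 family genes tested, 11 were lower and Sema3c was higher in the cardiomyocyte-like cluster, where 17.2% of all genes were lower and 8.29% higher, and their median ratio of 0.457 stood beside 0.892 over all genes. In the epicardial-like cluster 4 were higher and 2 lower, against 5.12% and 10.5% of all genes. In the Lhx2-led cluster 3 were higher and 4 lower, against 6.78% and 5.89%. These genes were named after their values were seen.

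Most genes that act behind plexins were present in all clusters. Of 27 tested, 2, 4 and 4 were higher and 5, 3 and 3 lower in the epicardial-like, Lhx2-led and cardiomyocyte-like clusters, with median ratios of 0.855, 1.08 and 0.933. Over all genes 5.12%, 6.78% and 8.29% were higher and 10.5%, 5.89% and 17.2% lower, with medians of 0.964, 1.04 and 0.892. Cofilin Cfl1, which severs actin filaments, was the highest at 321 CPM per kilobase and Fes was the least detected, in 4 cells. Rnd1, a small GTPase that binds plexins, was detected in 16 of 32 epicardial-like cells, 1 Lhx2-led and 0 cardiomyocyte-like cells. Dpysl3, a collapsin response mediator, averaged 447 CPM in the cardiomyocyte-like, 36.6 in the Lhx2-led and 17.9 in the epicardial-like cells. Among co-receptors and processing enzymes the integrin subunit Itgb1 was the highest at 123 CPM per kilobase, and Chl1 and Nrcam were detected in 0 cells. Furin, the protease that cleaves class 3 semaphorins, had a mean in the cardiomyocyte-like cells 2.55 times that of the other cells, with cells from 15.9 to 346 CPM. For the related protease Pcsk5 this ratio was 3.99 in the epicardial-like cells. Of the 7 co-receptor and processing genes tested, 1, 0 and 1 were higher and 1, 1 and 2 were lower in the epicardial-like, Lhx2-led and cardiomyocyte-like clusters, to be read against the same shares of all genes.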

How the data were processed

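The deposited table holds estimated counts per gene for 74 single cells, made by the authors with kallisto (version not given) per the submitters' processing notes, which name hg38 although all identifiers are mouse Ensembl genes; libraries were SMARTSeq V4 and Nextera XT per the labels' protocols. They were deposited as whole numbers, by a step of rounding or summing over transcripts that the labels do not describe. GENCODE M21 (GRCm38) matched 29857 of 30323 identifiers; the others held 0.357% of counts.

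The members and lists were chosen with earlier results of these data known. Counts were scaled to CPM. No doublet caller was run on these singly sorted cells and none was left out. Clusters came from Ward clustering of 10 components of 1000 variable genes without the 31 family genes, cut at 3. A gene was called at a mean CPM of at least 2 or at most 0.5 times that of the other cells, among genes detected in at least 10% of cells. The 3 genes of highest Spearman rho with each member were named. Co-detection was compared with the product of detection shares, which ignores that cells differ in depth. Of 9 neural crest, 7 erythroid, 8 hepatoblast and foregut and 5 leukocyte markers, 1, 0, 0 and 0 were detected in at least 50% of cells. No exon of another gene in the table overlaps those of the members. The code was checked on simulated data. Python 3.11.15, SciPy 1.17.1, scikit-learn 1.9.0, R 4.3.3 and scran 1.30.0 were used.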

Additional observations from a re-analysis of the deposited data

How the results depend on the processing

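The 65 of 74 cells with a ligand and its receptor (87.8%) became 95.9% at 1 or more counts and 75.8% after thinning. Plxna2 alone had these same 2 shares, so the change largely restates the detection of that plexin. The 8 members present in 50% or more of the cells were 8 at 1 count and 6 at 10 counts or after thinning. The share of all genes at this frequency is not given here, so these numbers show nothing particular to the members. The median co-detection ratio stayed at 1.00 under all 3, but genes present in nearly every cell hold it there. The 9 calls of 24 at the 2-fold rule (17.9% of calls over all genes) became 14 of 30 with no filter on low counts (31.4%), where Sema3e and Plxnd1 enter, and 5 with clusters from 500 variable genes (14.7%). They were 8 to 11 under the other settings, and 9 to 10 when each cell was left out in turn. Leaving out the 8 cells of negative silhouette gave 9, and both of these last alternatives were chosen after seeing the data. No called ratio changed direction under any setting, and of 192 comparisons of single ratios 5 lost and 2 gained the call. Detection shares depend on the threshold and the depth: Plxnd1 was in 16.2% of cells at 1 count and 1.35% at 10, and Plxna2 was in 86.5% of cells as deposited and in 75.8% of the 66 cells that could be thinned. Nrp2 was in 74.3% of cells at 1 count, 54.1% at 5 and 45.9% at 10. No paired analysis was possible because all cells form a single group.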

Other observations

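Ligands and receptors that use neuropilins for vascular growth signals were read in the same clusters. Of 6 such genes tested, 1 was higher and 2 were lower in the epicardial-like cluster, 2 were higher and 1 lower in the Lhx2-led cluster, and 0 were higher and 2 lower in the cardiomyocyte-like cluster, beside the shares of all genes given above. Their median ratios were 0.688, 1.20 and 0.829, beside 0.964, 1.04 and 0.892 over all genes. Flt1, a receptor and decoy for vascular endothelial growth factor A, was detected in 23 of 32 epicardial-like cells at 53.2 CPM on average, in 2 of 32 Lhx2-led cells at 1.27 and in 1 of 10 cardiomyocyte-like cells at 5.84. Vegfc, a lymphatic and venous growth factor whose receptors work with Nrp2, was detected in 14 Lhx2-led, 5 epicardial-like and 1 cardiomyocyte-like cells. Its mean of 19.4 CPM in the Lhx2-led cells was 9.05 times that of the other cells. Vegfb was the highest of the list per kilobase (29.5 CPM per kilobase), Vegfa was detected in 60 cells, Kdr in 8, and Vegfd and Flt4 in 1 each.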
